A study of Homo sapiens with 38 samples.

Results

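The superoxide and peroxide removing enzymes described here are 10 genes: the superoxide dismutases SOD1, SOD2 and SOD3, catalase (CAT), the glutathione peroxidases GPX1, GPX2, GPX3 and GPX4, and the peroxiredoxins PRDX1 and PRDX5. They were given by name, with no threshold on their values. Their probes were found through the transcript accession of each probe, which gave 13 of the 34127 probes on the array, for 10 of the 19720 genes that could be named. GPX1, GPX3 and PRDX1 had 2 probes each and the other genes 1. Where a gene is counted once, it is counted through its probe with the highest mean signal.

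Expression was measured on 38 single-dye whole-genome arrays in A549 cells, a human line with features of alveolar epithelium that was derived from a lung adenocarcinoma. The cells were exposed to fumed silica nanoparticles (NPs) or to serum-free medium alone, so all groups shared the absence of serum during exposure. After 24 h, 4 arrays were made at 0.1 μg/cm2 and 4 at 1.0 μg/cm2, with 4 control arrays in common (set A), 4 at 1.5 μg/cm2 with 4 controls of their own (set B), and 3 at 3.0 μg/cm2 and 3 at 6.0 μg/cm2 with 3 controls in common (set C). After 72 h, 3 arrays were made at 3.0 μg/cm2 and 3 at 6.0 μg/cm2, with 3 controls of that time in common (set C). A549 is a single tumor line that carries a loss of KEAP1 function, which leaves the transcription factor NRF2 active also without a stressor, and it stands for neither normal nor mixed lung tissue.

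Superoxide is made as a by-product of respiration and by dedicated oxidases. Superoxide dismutases turn it into hydrogen peroxide, SOD1 with copper and zinc in the cytosol, SOD2 with manganese in the mitochondrial matrix and SOD3 outside the cell. Catalase in peroxisomes, the glutathione peroxidases and the peroxiredoxins then remove the peroxide, the second group at the expense of glutathione and the third of thioredoxin. GPX1 to GPX4 are selenoproteins. SOD2 is a known target of the transcription factor NF-kB, and GPX2 a known target of NRF2.

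SOD2 and GPX2 changed by more than 1.5-fold after exposure to silica NPs, in opposite directions. SOD2 rose at the 2 higher doses, by 3.70-fold at 6.0 μg/cm2 and 24 h, and by less at 72 h. GPX2 fell at the same doses, by 2.57-fold at 6.0 μg/cm2 and 24 h and by 3.58-fold at 72 h. CAT, GPX3, SOD1, GPX1 and PRDX1 changed by less than 1.5-fold at 6.0 μg/cm2 at one time or both, GPX4 and PRDX5 passed the test in none of the 7 comparisons with controls, and SOD3 was not well above background on any of the 38 arrays.

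Levels are given on the log2 scale, from the processed signal of the scanner, after subtraction of each array's own 75th percentile, so a level of 1 means a signal 2-fold above that percentile, and no level is set against that of another probe. Differences are log2 fold changes, exposed minus control. A gene is said to rise or fall where limma's moderated test, with Benjamini-Hochberg adjustment over all probes tested, gave an adjusted p below 0.05, and to be modulated where the fold change was also at least 1.5. A probe was tested where at least 1 of the groups compared had it well above background throughout, which kept 9 of the 10 genes in every comparison and left out SOD3. The 75th percentile of the raw signal ranged from 740.4 to 3202, and between 54.4% and 73.5% of an array's probes exceeded the background clearly. In sets A and B, arrays 1 and 2 of a group, and arrays 3 and 4, mostly lay closer together than other arrays of the group, except arrays 1 and 2 of the set B controls, with a spread of their differences over probes (median absolute deviation) of 0.0646 to 0.271, the highest in that exception, against 0.237 to 0.342 for the other pairs. The sample titles give each of these arrays its own biological and technical replicate number, up to 4, whereas the protocol names 3 cultures for each condition. Whether close arrays share a culture is thus not settled. The pairs of set C, with 3 arrays in each group, had a spread of 0.1 to 0.205, below that of those other pairs. The p-values measure the spread between the arrays of a group, in set C too, which may be in part technical. With the close arrays of sets A and B averaged, which left 2 values in each group, the number of modulated probes at 1.5 μg/cm2 went from 520 to 0. Fewer values alone can lower such a number. The number of modulated genes in the list was 0 at 0.1, 1.0 and 1.5 μg/cm2 already before averaging, so averaging does not test it. The 24 h arrays of set C and the 72 h controls share a scan day, whereas every exposed 72 h array was scanned on another day, so exposure and scan day cannot be told apart at 72 h.

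The epithelial keratins KRT8, KRT18 and KRT19, with EPCAM and CDH1, were well above background on all 38 arrays. At 24 h 2 of these 5 fell and 1 rose at either higher dose, and at 72 h 3 fell at 3.0 μg/cm2 and 5 at 6.0 μg/cm2 (medians −0.31 and −0.43). Of 10 markers of alveolar type II cells, 3 were well above background on all 38 arrays (SFTPC, NAPSA and ABCA3). SFTPA2 and SFTPD were on 37, LAMP3 on 33, SFTPA1 on 11, SFTPB on 2, NKX2-1 on 1 and SLC34A2 on none. Of the 6 that were tested, 0 rose and 1 fell at 3.0 μg/cm2 and 2 rose and 2 fell at 6.0 μg/cm2 at 24 h, and 1 rose and 0 fell, then 0 rose and 3 fell, at 72 h. Of 9 markers of leukocytes, endothelial cells and fibroblasts, PTPRC, CD14 and COL1A1 were well above background on every array. CDH5 was on 37 arrays, VWF on 27, PECAM1 on 3, CD163 and DCN on 1 each and COL1A2 on none. The summed signal of these 9, in units of the array's 75th percentile, was 0.521 to 0.586 in the 24 h controls of set C, 0.318 to 0.339 at 3.0 μg/cm2 and 0.264 to 0.295 at 6.0 μg/cm2. At 72 h it was 2.74 to 2.84 in controls, 1.83 to 1.97 at 3.0 μg/cm2 and 1.02 to 1.17 at 6.0 μg/cm2. This sum is mostly that of CD14 and COL1A1, whose median levels of −1.75 and −2.48 were the highest of the 9. Of those tested, 2 and 3 of 4 fell at 24 h and 2 of 5 at each dose at 72 h, 0 rose, and the median at 3.0 μg/cm2 and 72 h was 0.19. Of all probes tested at 24 h, 5.69% rose and 6.5% fell at 3.0 μg/cm2, and 14.2% rose and 20% fell at 6.0 μg/cm2. At 72 h, 12.9% rose and 13.9% fell at 3.0 μg/cm2, and 23.8% rose and 22% fell at 6.0 μg/cm2. The part of these marker differences in the results below was not tested. In bulk RNA, fewer cells of a type and less RNA per cell cannot be told apart.

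None of the 9 tested genes passed the limma test at 0.1, 1.0 or 1.5 μg/cm2, against 0%, 0.019% and 3.43% of all probes tested. At an unadjusted p below 0.05 by limma there were 2 genes at 0.1 μg/cm2 (GPX2 and GPX3), 2 at 1.0 μg/cm2 (CAT and PRDX1) and 1 at 1.5 μg/cm2 (CAT). Of all probes, 2049 of 21698, 3706 of 21081 and 3507 of 21021 had such a p at these doses. The methods' t-test with Benjamini-Hochberg adjustment passed CAT at 1.0 μg/cm2, at less than 1.5-fold. With the fold change of 1.5 it called 0 genes at each of these doses. At 3.0 μg/cm2 and 24 h, 2 of 9 passed, against 12.2% of all probes: SOD2 rose, as did 5.69% of probes, and GPX2 fell, as did 6.5%. At 6.0 μg/cm2 and 24 h, 6 of 9 passed, against 34.3%: SOD2 rose (14.2% of probes), and SOD1, CAT, GPX2, GPX3 and PRDX1 fell (20% of probes). At 72 h, 4 of 9 passed at 3.0 μg/cm2, against 26.9%, with SOD2 and GPX1 up (12.9% of probes) and GPX2 and GPX3 down (13.9%). At 6.0 μg/cm2 it was 5 of 9, a share near the 45.8% of all probes, with SOD2 and GPX1 up (23.8% of probes) and CAT, GPX2 and GPX3 down (22%). The median log2 fold change of the 9 genes was −0.079 and −0.20 at 3.0 and 6.0 μg/cm2 at 24 h, and −0.037 and −0.083 at 72 h, beside medians over all probes of −0.0051, −0.033, 0.031 and 0.038.

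With the fold change of 1.5 added, 0 genes were modulated at 0.1, 1.0 and 1.5 μg/cm2, against 0%, 0.00949% and 2.47% of all probes. SOD2 and GPX2 were the 2 modulated genes at 3.0 and at 6.0 μg/cm2 at 24 h, against 2.88% and 9.32% of all probes. At 72 h it was 1 at 3.0 μg/cm2 (GPX2) and 2 at 6.0 μg/cm2 (SOD2 and GPX2), against 5.91% and 17.1%. Exposed and control arrays did not overlap for 1 gene at 0.1 μg/cm2 and 2 each at 1.0 and 1.5 μg/cm2, beside 7.33%, 12.9% and 13.5% of all probes, for 7 and 8 genes at 3.0 and 6.0 μg/cm2 at 24 h, beside 35.6% and 50.6%, and for 4 and 6 at 72 h, beside 48% and 57.9%. In the direct comparison of both doses 2 genes differed at 24 h (SOD2 and GPX2) and 1 at 72 h (GPX2), against 9.03% and 16.8% of all probes, numbers that went from 2000 probes to between 433 and 1283, and from 3621 to between 1316 and 3226, when single arrays were left out. The response differed between 72 h and 24 h for 2 genes at 3.0 μg/cm2 (SOD1 and SOD2), against 20.6% of all probes, and for 4 at 6.0 μg/cm2 (SOD1, SOD2, GPX2 and PRDX5), against 37.9%. The comparisons at 3.0 and 6.0 μg/cm2 share their controls, and these arrays enter both values of a gene, as do the controls of set A at 0.1 and 1.0 μg/cm2.

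SOD2 was the member that rose most. Its promoter is shown because the gene is a known NF-kB target that rose: the 250 bases before the transcript start lowest on the chromosome among the 4 that RefSeq lists, at chr6:159693242-159693491 of GRCh38.p14, read on the minus strand, with every match to the GC box GGGCGG, searched on both strands, in capitals.
SOD2: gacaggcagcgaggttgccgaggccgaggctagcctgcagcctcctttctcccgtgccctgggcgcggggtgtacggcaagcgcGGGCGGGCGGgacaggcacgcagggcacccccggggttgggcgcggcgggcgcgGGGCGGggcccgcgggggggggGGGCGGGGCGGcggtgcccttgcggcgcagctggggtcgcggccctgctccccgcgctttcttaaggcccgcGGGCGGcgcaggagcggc
This stretch is 80.8% G and C and holds 6 matches to the GC box, the first of them 166 bases before the start. A GC box was found in 42.6% of the 35114 RefSeq promoters of the same length. Among these genes it was also found for CAT, GPX1, GPX2 (not marked in the stretch printed below), GPX3, GPX4 and PRDX5, and not for SOD3. The NF-kB decamer was found in none of the 4 SOD2 stretches and in 5.21% of all promoters.

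On the 3 control arrays of set C at 24 h, the SOD2 level was 1.43, 1.35 and 1.38. It was 2.51, 2.50 and 2.56 on the arrays at 3.0 μg/cm2. At 6.0 μg/cm2 it was 3.21, 3.28 and 3.33. The 3 groups did not overlap, and the SD of each (0.037, 0.031 and 0.056) was far smaller than the steps between them. The log2 fold change was 1.14 ± 0.048 (SE, 3 against 3 arrays) at 3.0 μg/cm2, or 2.20-fold, with an adjusted p of 0.000215 by limma. At 6.0 μg/cm2 it was 1.89 ± 0.055, with an adjusted p of 1.84e-05 by limma. Each of the 3 slides of the 24 h arrays of set C held all 3 groups, and within a slide the rise was 1.08 to 1.18 at 3.0 μg/cm2 and 1.79 to 1.95 at 6.0 μg/cm2. The arrays at 6.0 μg/cm2 stood 0.75 ± 0.052 above those at 3.0 μg/cm2, a comparison that does not use the controls (adjusted p = 0.00281 by limma).

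At 72 h, SOD2 was lower in exposed cells than at 24 h, while the controls were close to those of 24 h. The 72 h controls gave 1.32, 1.29 and 1.30. The arrays at 3.0 μg/cm2 gave 1.82, 1.77 and 1.78, and those at 6.0 μg/cm2 gave 1.97, 1.87 and 1.94. Each exposed array was above each control array. The log2 fold change was 0.49 ± 0.045 at 3.0 μg/cm2, which passed the test (adjusted p = 0.00212 by limma) but at 1.40-fold not the fold change of 1.5. At 6.0 μg/cm2 it was 0.62 ± 0.059, or 1.54-fold (adjusted p = 4e-04 by limma). This last value lay just past the fold change threshold, and quantile normalization of the arrays brought it to 0.58, just under. Between 3.0 and 6.0 μg/cm2 the 72 h levels differed by 0.13 ± 0.055, with a 95% interval of −3e-04 to 0.27 and an adjusted p of 0.152 by limma.

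The response of SOD2 differed between the times by the interaction test. It was 0.65 ± 0.056 smaller at 72 h than at 24 h at 3.0 μg/cm2 (adjusted p = 0.000279 by limma) and 1.27 ± 0.071 smaller at 6.0 μg/cm2 (adjusted p = 3.57e-06). Within set C the order of the levels was 6.0 μg/cm2 at 24 h, 3.0 μg/cm2 at 24 h, 6.0 μg/cm2 at 72 h, 3.0 μg/cm2 at 72 h and the controls, with no overlap between any neighbouring groups down to the 24 h controls, whose lowest array at 1.35 was above the highest 72 h control at 1.32.

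At the lower doses SOD2 stayed near its controls. In set A the levels ranged from 1.16 to 1.35 in controls, from 1.22 to 1.34 at 0.1 μg/cm2 and from 1.34 to 1.42 at 1.0 μg/cm2. In set B the controls spread from 1.02 to 1.58, and the arrays at 1.5 μg/cm2, from 1.41 to 1.48, fell inside that range. The log2 fold changes were 0.012, 0.13 and 0.085 at 0.1, 1.0 and 1.5 μg/cm2, with 95% intervals of −0.15 to 0.17, −0.0090 to 0.27 and −0.20 to 0.37. These intervals exclude a rise as large as that at 3.0 μg/cm2.

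GPX2, the glutathione peroxidase best known from gastrointestinal epithelium, was the member that fell most. Its promoter is shown because the data bear on a gene that NRF2 is known to control: the 250 bases before its RefSeq start, at chr14:64942746-64942995 of GRCh38.p14, on the minus strand, with the match to the core of the antioxidant response element (ARE), TGACNNNGC, in capitals.
GPX2: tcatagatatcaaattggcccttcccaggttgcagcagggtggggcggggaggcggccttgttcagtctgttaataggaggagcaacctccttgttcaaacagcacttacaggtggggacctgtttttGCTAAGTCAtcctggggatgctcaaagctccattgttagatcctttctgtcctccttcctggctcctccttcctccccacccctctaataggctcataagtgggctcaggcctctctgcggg
The match begins 122 bases before the start and lies on the strand opposite to the one printed. The ARE core, searched on both strands, was found in 10.9% of the 35114 promoters and in no other stretch of these genes. RefSeq promoters were at hand for 8 of the 10 genes, in 14 entries, and not for SOD1 and PRDX1. A match is a description of the letters in this window and not of binding.

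The 24 h controls of set C gave GPX2 levels of 5.02, 4.94 and 4.94. The arrays at 3.0 μg/cm2 gave 4.13, 4.22 and 4.41. Those at 6.0 μg/cm2 gave 3.46, 3.66 and 3.71. As for SOD2, the 3 groups did not overlap, but here the levels went down with dose. The log2 fold change was −0.72 ± 0.081 at 3.0 μg/cm2 (1.65-fold lower, adjusted p = 0.00377 by limma) and −1.36 ± 0.078 at 6.0 μg/cm2 (2.57-fold lower, adjusted p = 0.000105). Within the 3 slides the differences were −0.90 to −0.53 at 3.0 μg/cm2 and −1.56 to −1.24 at 6.0 μg/cm2. From 3.0 to 6.0 μg/cm2 the level fell by 0.64 ± 0.098 (adjusted p = 0.0153 by limma). This last call was lost with normexp background correction (adjusted p = 0.0903) and without replicate 2 of the arrays at 3.0 μg/cm2 (adjusted p = 0.0579).

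At 72 h the GPX2 level was 5.63, 5.57 and 5.58 in controls. It was 4.62, 4.70 and 4.59 at 3.0 μg/cm2. It was 3.79, 3.60 and 3.87 at 6.0 μg/cm2. Again no groups overlapped, and the 72 h controls stood above all the 24 h controls of the same set. GPX2 fell by 0.96 ± 0.054 at 3.0 μg/cm2 (1.95-fold, adjusted p = 0.00053 by limma) and by 1.84 ± 0.084 at 6.0 μg/cm2 (3.58-fold, adjusted p = 3.73e-05). The arrays at 6.0 μg/cm2 stood 0.88 ± 0.086 below those at 3.0 μg/cm2 (adjusted p = 0.00339 by limma). The fall was larger at 72 h than at 24 h by 0.48 ± 0.12 at 6.0 μg/cm2 (adjusted p = 0.00824 by limma). At 3.0 μg/cm2 the difference between the times was −0.24, with a 95% interval of −0.46 to −0.023 and an adjusted p of 0.107 by limma, and the test of it was passed under quantile normalization (−0.32, adjusted p = 0.0487).

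At the lower doses GPX2 showed no change past the test. The levels ranged from 5.59 to 5.71 in the controls of set A, from 5.44 to 5.52 at 0.1 μg/cm2 and from 5.55 to 5.69 at 1.0 μg/cm2. All 4 arrays at 0.1 μg/cm2 were below all 4 controls, yet the log2 fold change of −0.17 ± 0.062 had an adjusted p of 0.449 by limma. The values at 1.0 and 1.5 μg/cm2 were −0.011 and −0.14, with 95% intervals of −0.15 to 0.13 and −0.33 to 0.047.

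**Figure D1:**
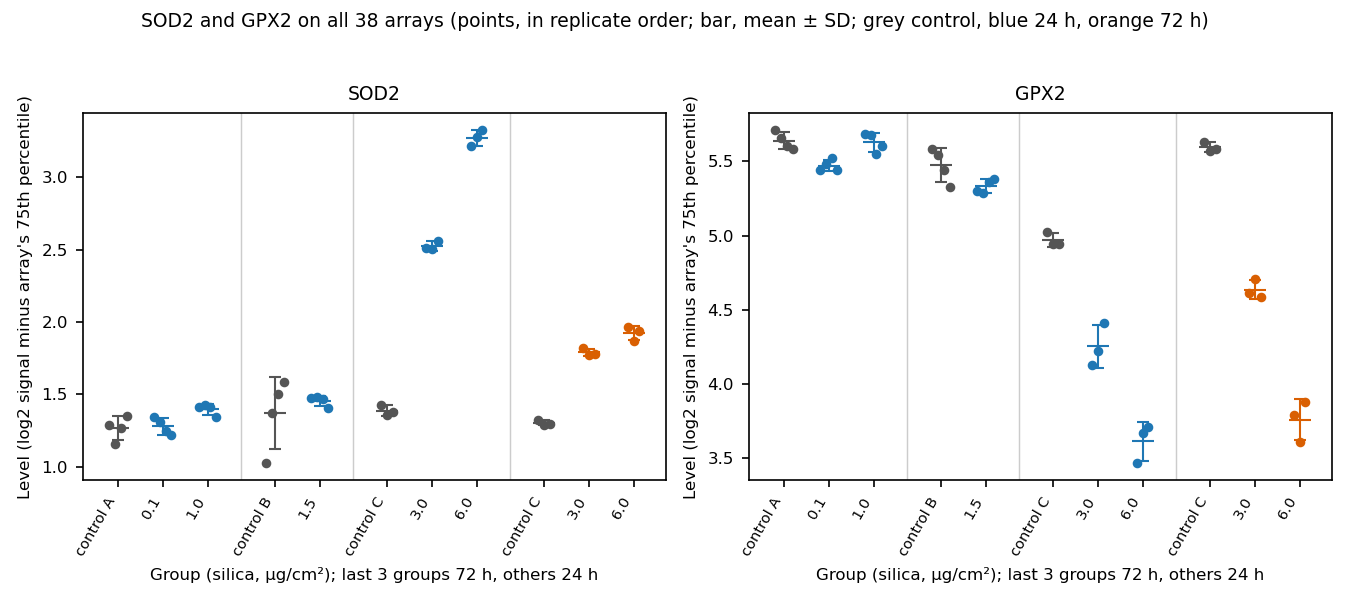
SOD2 (left) and GPX2 (right) levels, as log2 signal minus the array's 75th percentile, on each of the 38 arrays by group, with silica doses in μg/cm2; points are arrays in replicate order, bars the group mean ± SD, and vertical lines part the sets and times. SOD2 reached 3.21 to 3.33 at 6.0 μg/cm2 and 24 h from 1.35 to 1.43 in controls, while GPX2 went down to 3.46 to 3.71 from 4.94 to 5.02.

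Of the other superoxide dismutases, SOD1 behaved differently from SOD2, and SOD3 could not be tested. SOD1 was well above background on all 38 arrays, with levels from 5.94 to 6.54. At 24 h it was 6.23 ± 0.068 (SD, n = 3) in the controls of set C, 6.08 ± 0.045 at 3.0 μg/cm2 and 5.97 ± 0.024 at 6.0 μg/cm2. The difference passed the test only at 6.0 μg/cm2, where SOD1 fell by 0.26 ± 0.056 (SE, 1.19-fold, adjusted p = 0.0148 by limma). That call was lost with normexp background correction (adjusted p = 0.0857) and without replicate 2 of the arrays at 6.0 μg/cm2 (adjusted p = 0.0571), and quantile normalization brought the difference to −0.16. At 72 h SOD1 was 6.15 ± 0.056 in controls, 6.27 ± 0.094 at 3.0 μg/cm2 and 6.14 ± 0.091 at 6.0 μg/cm2, without a difference past the test. The interaction test gave a difference between the times of 0.27 ± 0.085 at 3.0 μg/cm2 (adjusted p = 0.0454 by limma) and of 0.25 ± 0.086 at 6.0 μg/cm2 (adjusted p = 0.0394), but these calls held in only 4 of the 14 other settings of each, with adjusted p from 0.0381 to 0.103 and from 0.0389 to 0.0869, and were lost without 9 and 8 of the 12 arrays in turn. SOD3 levels lay between −9.32 and −6.55, and the scanner called them well above background on none of the 38 arrays, so the gene has no fold change here.

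CAT, the catalase of peroxisomes, fell at 6.0 μg/cm2 at both times. Its level was 1.04 ± 0.036 (SD, n = 3) in the 24 h controls of set C, 0.80 ± 0.099 at 3.0 μg/cm2 and 0.70 ± 0.068 at 6.0 μg/cm2. CAT fell by 0.35 ± 0.058 at 6.0 μg/cm2 (SE, 1.27-fold, adjusted p = 0.00517 by limma), and the difference of −0.25 at 3.0 μg/cm2 did not pass (adjusted p = 0.0554). That difference passed in 3 other settings, with slide as a random block (adjusted p = 0.0365), with normexp background correction (0.033) and with only probes above background in both groups (0.0491). All 3 exposed arrays of either dose were below all 3 controls. At 72 h it was 0.89 ± 0.038 in controls, 0.80 ± 0.067 at 3.0 μg/cm2, a difference of −0.092 that did not pass (adjusted p = 0.259), and 0.60 ± 0.089 at 6.0 μg/cm2, a fall of 0.30 ± 0.069 (adjusted p = 0.0141 by limma), and without replicate 2 of these controls the adjusted p was 0.0502. At the lower doses the values lay the other way and limma made no call. CAT was 0.11 ± 0.049 above its controls at 1.0 μg/cm2, with all 4 arrays above all 4 controls (adjusted p = 0.277 by limma and 0.0309 by the methods' t-test). At 1.5 μg/cm2 it was 0.29 ± 0.090 above them (adjusted p = 0.148 by limma), by 0.48 within the first and 0.11 within the second of the 2 scan days of set B.

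GPX1, the cytosolic and mitochondrial glutathione peroxidase, rose slightly at 72 h on both of its probes. Through the probe with the higher signal it was 5.39 ± 0.11 (SD, n = 3) in controls, 5.68 ± 0.025 at 3.0 μg/cm2 and 5.67 ± 0.10 at 6.0 μg/cm2. The rises were 0.29 ± 0.068 (SE, adjusted p = 0.0289 by limma) and 0.28 ± 0.087 (adjusted p = 0.0368). Its other probe gave 0.21 ± 0.051 and 0.27 ± 0.072 (adjusted p = 0.0313 and 0.0235 by limma). At 24 h and 6.0 μg/cm2 only the second probe passed the test, with a rise of 0.24 ± 0.055 (adjusted p = 0.0179 by limma), while the first gave 0.14 ± 0.049 (adjusted p = 0.0649), which passed with quantile normalization (0.22, adjusted p = 0.0135) and by the methods' t-test (0.0163). The calls on the first probe at 72 h were lost in 7 of the 13 other settings at 3.0 μg/cm2, without any of its exposed arrays or replicate 2 of the controls among them (adjusted p from 0.0655 to 0.0823), and in 8 of 13 at 6.0 μg/cm2, without exposed replicate 1 or 3 or any control array among them (0.0535 to 0.10). A larger step separated the controls of both times, 4.45 to 4.49 at 24 h and 5.27 to 5.47 at 72 h, for which no test was planned.

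GPX3, the secreted glutathione peroxidase, was a dim signal, with levels from −3.32 to −2.30 on its brighter probe. At 72 h it was −2.42 ± 0.12 (SD, n = 3) in controls, −2.94 ± 0.018 at 3.0 μg/cm2 and −2.81 ± 0.18 at 6.0 μg/cm2. GPX3 fell by 0.52 ± 0.071 (SE, adjusted p = 0.00631 by limma) and by 0.39 ± 0.11 (adjusted p = 0.0287). Its other probe fell by 0.59 ± 0.15 at 3.0 μg/cm2, or just past 1.5-fold (adjusted p = 0.0324 by limma), and gave −0.40 ± 0.14 at 6.0 μg/cm2 (adjusted p = 0.0562). At 24 h the brighter probe gave −0.27 at 3.0 μg/cm2 (adjusted p = 0.0947 by limma, and 0.0418 without exposed replicate 3) and fell by 0.28 ± 0.074 at 6.0 μg/cm2 (adjusted p = 0.0276), where normexp background correction brought it to −0.12 (adjusted p = 0.6). The calls at 6.0 μg/cm2 were also lost without exposed replicate 1 or 2 or control replicate 2 or 3 at 24 h (adjusted p from 0.0654 to 0.0891), and without exposed replicate 1 or 2 or any control array at 72 h (0.0503 to 0.0926), while the call at 3.0 μg/cm2 and 72 h held in 13 of 13 other settings. At 0.1 μg/cm2 GPX3 stood 0.27 ± 0.094 above its controls (adjusted p = 0.434 by limma).

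GPX4, which reduces lipid peroxides in membranes, showed no change past the test. Its log2 fold changes ran from −0.097 to 0.14 over the 7 comparisons with controls. The widest of its 95% intervals at the 2 higher doses was −0.023 to 0.31, at 6.0 μg/cm2 and 24 h. As for GPX1, its controls differed by time, from 2.89 to 3.05 at 24 h and from 3.33 to 3.38 at 72 h.

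PRDX1, the main cytosolic peroxiredoxin, and PRDX5, found in mitochondria, peroxisomes and cytosol, moved little. PRDX1 fell by 0.20 ± 0.060 at 6.0 μg/cm2 and 24 h on its brighter probe (1.15-fold, adjusted p = 0.0416 by limma), and its other probe gave −0.090 (adjusted p = 0.263). The call on the brighter probe held in 3 of 14 other settings, and leaving out any array but exposed replicate 1 ended it (adjusted p from 0.0718 to 0.13). At 1.0 μg/cm2 PRDX1 was −0.40 ± 0.10 from its controls, with all 4 arrays below all 4 controls, and the adjusted p was 0.147 by limma. At 0.1 μg/cm2 the PRDX1 levels were 7.28 and 7.28 on arrays 1 and 2 and 6.55 and 6.58 on arrays 3 and 4, which parts them along the close arrays described above. PRDX5 was 0.21 above its controls at 6.0 μg/cm2 and 24 h (adjusted p = 0.0638 by limma; 0.31 and 0.0107 with quantile normalization) and 0.089 below them at 72 h (adjusted p = 0.249). The difference between these times, −0.30 ± 0.085, passed the interaction test (adjusted p = 0.0202 by limma), also with each array left out, and not with normexp background correction (−0.24, adjusted p = 0.0766).

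**Figure D2:**
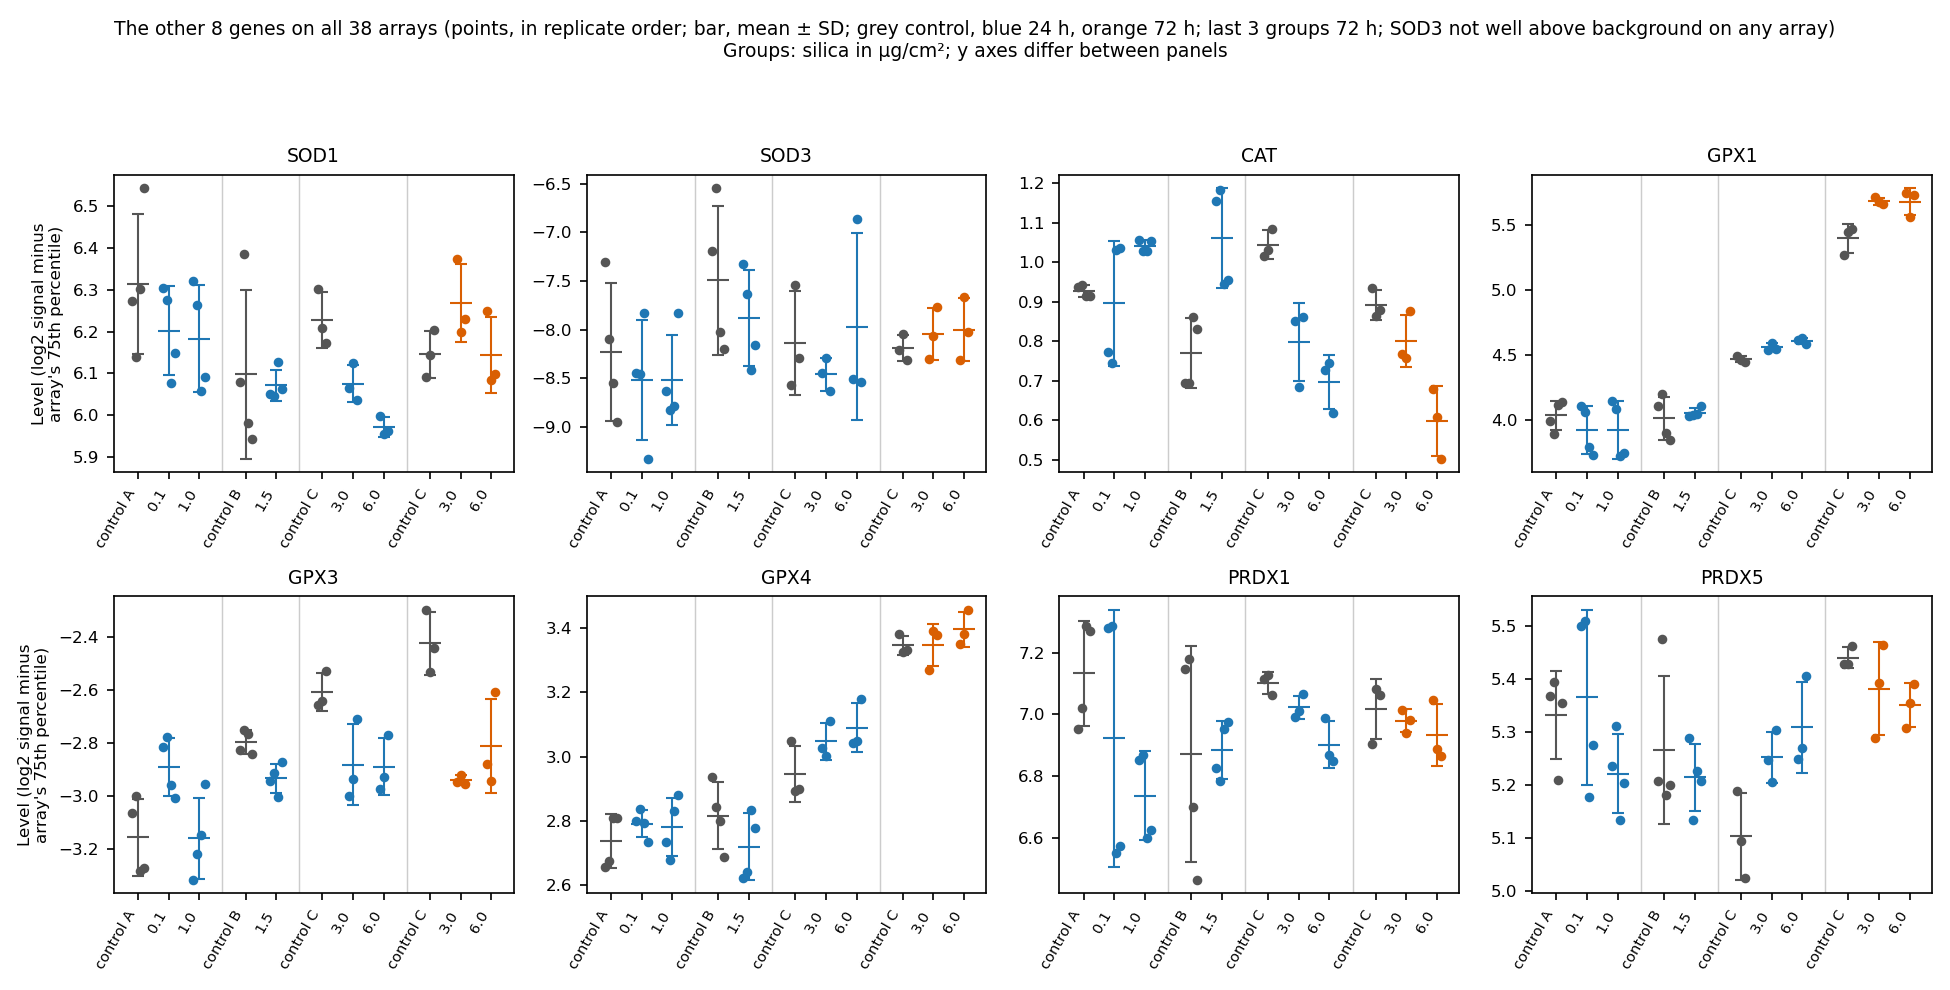
Levels of the other 8 genes, as log2 signal minus the array's 75th percentile, on each of the 38 arrays by group, with silica doses in μg/cm2; points are arrays in replicate order, bars the group mean ± SD, and the y axes differ. CAT stepped down from 1.02 to 1.09 in controls to 0.62 to 0.74 at 6.0 μg/cm2 and 24 h, and GPX1 stood higher in all 72 h groups than in all 24 h groups.

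**Figure D3:**
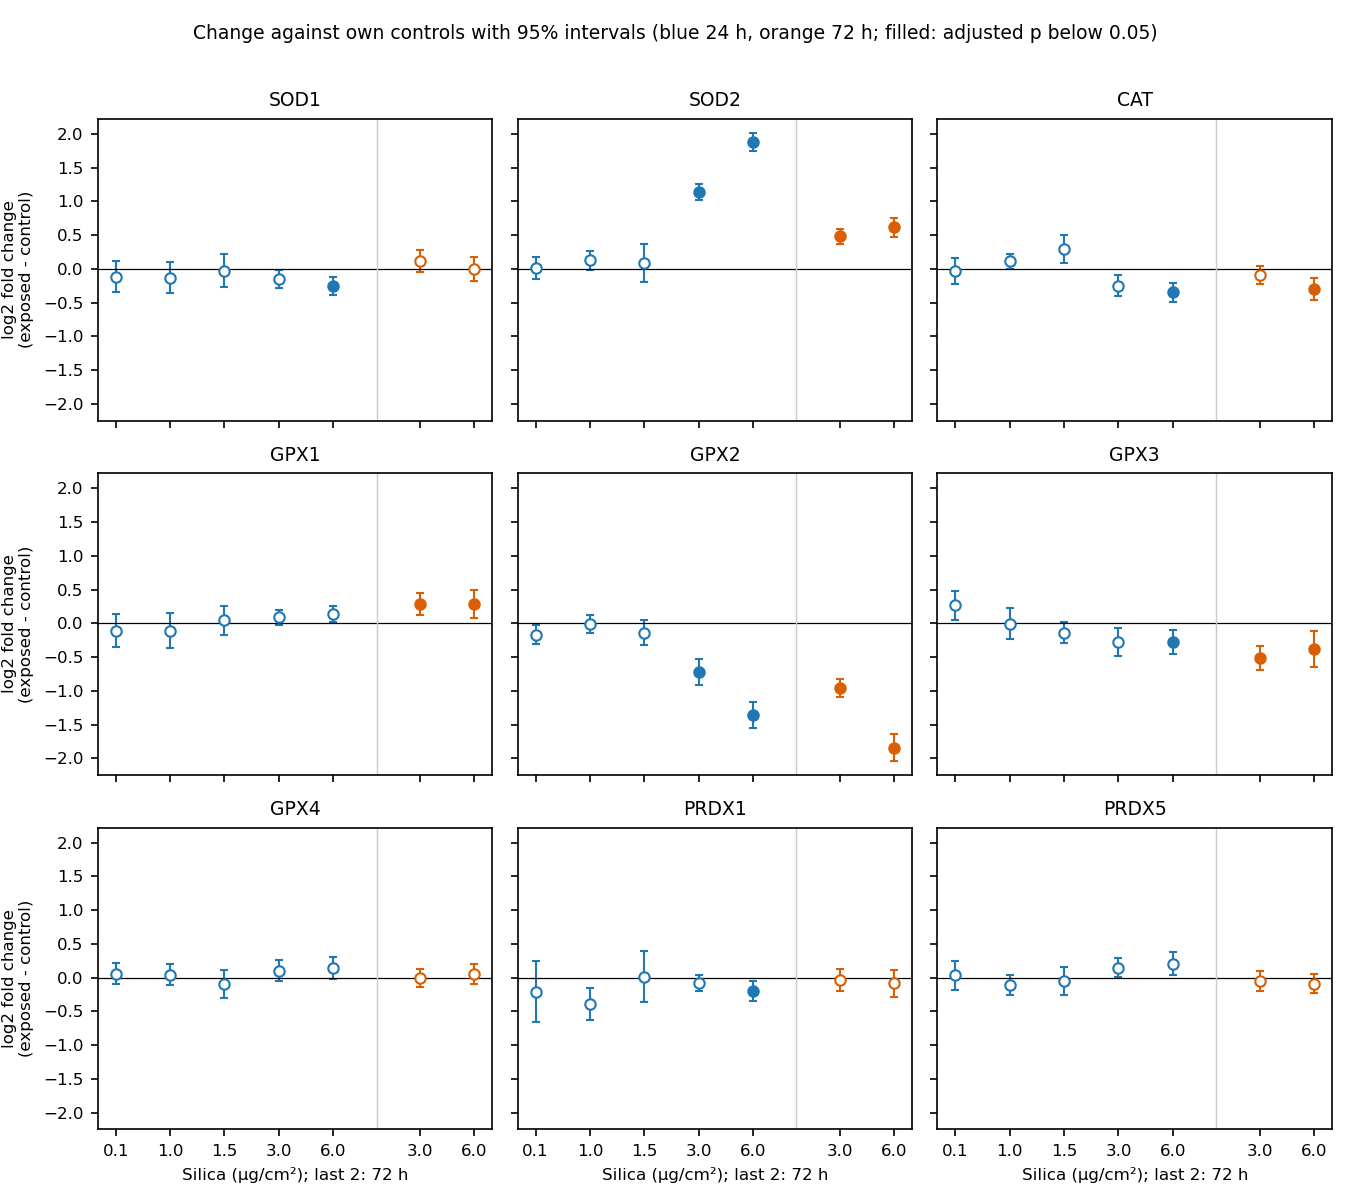
Log2 fold changes against the controls of the same set and time, with 95% intervals, of the 9 genes that could be tested, by silica dose in μg/cm2 (24 h in blue, 72 h in orange); filled points passed an adjusted p of 0.05. SOD2 is the gene with values of 1.14 and 1.89 at 24 h and GPX2 the one that reached −1.84 at 72 h, while GPX4 stayed between −0.097 and 0.14.

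**Figure D4:**
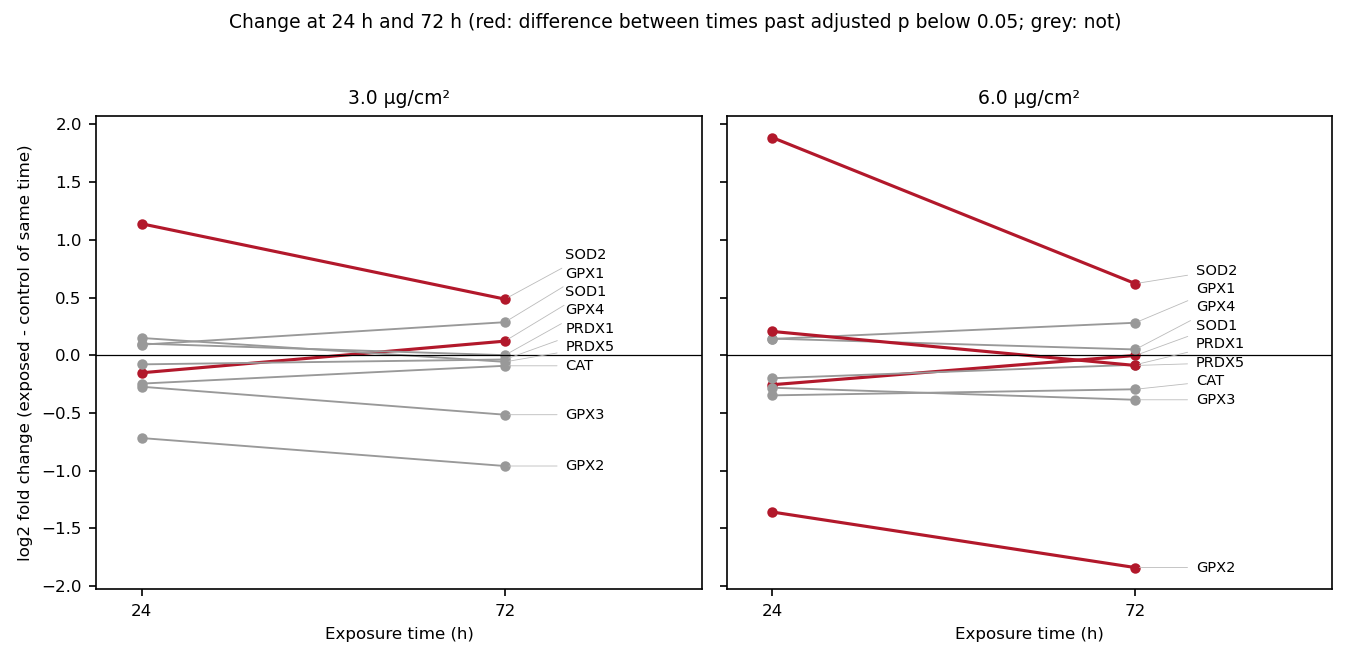
Log2 fold change of the 9 genes after 24 h and 72 h, at 3.0 μg/cm2 (left) and 6.0 μg/cm2 (right), with the genes whose response differed between the times by the interaction test in red. At 6.0 μg/cm2 SOD2 went from 1.89 to 0.62 and GPX2 from −1.36 to −1.84.

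The genes around these enzymes were read from lists chosen with earlier results of these data known, so their counts are descriptions and not independent tests. They stand beside 12.2% and 34.3% of all probes called at 3.0 and 6.0 μg/cm2 at 24 h and 26.9% and 45.8% at 72 h. Among 16 NF-kB target genes tested at 24 h, 11 rose at 3.0 μg/cm2 and 15 at 6.0 μg/cm2, and 0 fell, with medians of 0.52 and 1.03. At 72 h, 11 of 15 rose at 3.0 μg/cm2 and 12 at 6.0 μg/cm2, where 1 fell, with medians of 0.35 and 0.64. IL6, an inflammatory cytokine, rose by 2.08 and 3.73 at 24 h and by 1.62 and 2.27 at 72 h at these doses, all past the limma test with adjusted p between 2.22e-05 and 0.00311. ICAM1, a leukocyte adhesion molecule, rose by 1.66 and CCL20, a chemokine, by 1.76 at 6.0 μg/cm2 and 24 h. At 72 h 1 of the 3 control arrays had IL6 not well above background. At 1.0 μg/cm2 ICAM1 was 0.84 above its controls (adjusted p = 0.00467 by limma), with 1 of 4 controls not well above background, and 0 probes of the array were modulated at this dose with close arrays averaged or with replicate number as a block. At 1.5 μg/cm2 ICAM1 was 0.49 above its controls (adjusted p = 0.383 by limma).

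Of the 15 tested genes of the list of NRF2, KEAP1, small MAF proteins and NRF2 targets, 10 fell and 1 rose at 6.0 μg/cm2 and 24 h, with a median of −0.24, and 7 fell and 2 rose at 72 h, with a median of −0.22. The one that rose at 24 h was MAFF, a small MAF protein, by 1.50. EPHX1, an epoxide hydrolase, fell at 6.0 μg/cm2, with −0.69 at 24 h and −1.40 at 72 h. AKR1C1, an aldo-keto reductase, fell too, with −0.74 and −1.01. At 3.0 μg/cm2, 5 fell and 1 rose at 24 h and 8 fell and 0 rose at 72 h.

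Among 15 genes of glutathione synthesis, NADPH supply and other glutathione peroxidases, 8 fell and 1 rose at 6.0 μg/cm2 and 24 h, and 6 fell and 2 rose at 72 h. GCLC, the catalytic subunit of the first enzyme of glutathione synthesis, fell by 0.92 at 24 h (adjusted p = 0.000407 by limma). At 72 h its mean level was 2.24 at 6.0 μg/cm2 and 2.34 in controls. The NADPH-forming enzymes IDH1 and PGD both fell at 72 h, with −0.68 each. At 24 h the mean levels at 6.0 μg/cm2 and in controls were 3.00 and 3.07 for IDH1 and 4.66 and 5.12 for PGD. Of 17 other peroxiredoxins, thioredoxins and their partners, 4 rose and 3 fell at 24 h and 6 rose and 2 fell at 72 h at this dose. TXNIP, the inhibitor of thioredoxin, rose by 3.00 at 24 h, from controls of which 1 of 3 was well above background, and SESN2, a stress-induced sestrin, by 0.71. At 72 h the mean levels at 6.0 μg/cm2 and in controls were −5.02 and −4.80 for TXNIP and −1.79 and −1.75 for SESN2. GLRX3, a glutaredoxin, rose by 0.64 at 72 h, and at 24 h its mean level was 3.08 at 6.0 μg/cm2 and 2.67 in controls.

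Selenoprotein genes and the machinery that makes them showed 2 rises and 4 falls among 19 at 6.0 μg/cm2 and 24 h, and 4 rises and 5 falls at 72 h, shares close to those of all probes. SELENOP, the secreted selenium carrier, changed by −0.80 and −1.59 at 3.0 and 6.0 μg/cm2 at 24 h and by −1.62 at 3.0 μg/cm2 and 72 h, all past the limma test. In the 72 h arrays at 6.0 μg/cm2 it did not stand well above background, and was at least 6.71-fold lower than in controls (adjusted p = 2.4e-05 by limma). Such bounds set the mean of the brighter group against the dimmest signal well above background on each array of the other, or the probe's own where higher. Among oxidases that make superoxide or peroxide, 4 of 13 rose and 3 fell at 6.0 μg/cm2 and 24 h, and 4 of 15 rose and 5 fell at 72 h. XDH, which encodes xanthine oxidoreductase, rose by 0.88 and then 1.26, while MAOA, a monoamine oxidase, fell, with −0.63 and −2.11. NOX1, an NADPH oxidase, was well above background on the 72 h controls and on none of the arrays at 6.0 μg/cm2, where it was at least 5.62-fold lower (adjusted p = 7.43e-05 by limma), and it was above background on no 24 h array of set C. Of 14 genes of peroxisome assembly, 1 rose and 3 fell at 24 h and 2 rose and 3 fell at 72 h, shares near those of all probes. Of these genes 0 were modulated, beside 9.32% and 17.1% of all probes. Of 7 genes of copper uptake and delivery, 1 rose and 2 fell at 24 h and 1 rose and 3 fell at 72 h. SLC31A2, a copper transporter, rose by 0.70 at 24 h, and at 72 h its mean level was −0.42 at 6.0 μg/cm2 and −0.56 in controls. ATP7A, a copper-exporting ATPase, fell by 0.70 at 72 h, and at 24 h its mean level was −1.30 at 6.0 μg/cm2 and −0.76 in controls. At 1.5 μg/cm2 ATP7A rose by 0.78 (adjusted p = 0.00613 by limma). At this dose 506 of the 520 modulated probes rose, and 0 probes were modulated with close arrays averaged.

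The genes whose levels followed SOD2 most closely over the 38 arrays, after the mean of each set was subtracted and among 13471 genes, were MMP1, a collagenase (Pearson r = 0.97), IL6 (0.96), HSPA6, a heat shock protein (0.96), CTSL, a lysosomal protease (0.95), and RHCG, an ammonium transporter (0.95). Those closest to GPX2 were APOH (0.98), a plasma glycoprotein, F7 (0.97), which encodes a coagulation factor, KCNK5 (0.97), a potassium channel, C9orf152 (0.97) and TM4SF5 (0.97). The arrays of a group share their dose, slides and controls, so these correlations describe the same dose pattern and carry no test.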

How the data were processed

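Total RNA of A549 cells was labeled with Cy3 and hybridised to whole-genome arrays. The authors deposited each array's scanner output, made with Agilent Feature Extraction 10.10.1.1 for set A and 11.0.1.1 for sets B and C per the file headers. Its processed signal is an intensity corrected for background and not normalized between arrays. Group and time were taken from the source names. The descriptions of the exposed 72 h samples name 24 h. The series matrix that the authors deposited holds the median spot intensity, and served as an alternative. Control spots and 0.612% of spots marked as outliers were left out, spots of a probe were averaged, and a probe counted as well above background if 50% or more of its spots were. Probes were named through unversioned accessions in the gene annotation of RefSeq (GRCh38.p14), which gave a single symbol to 25715 of 34127 probes. PRDX2, GGT1, NFKB2 and OSGIN1 of the lists had no probe by this match.

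Fits used limma 3.58.1 (lmFit, eBayes), data.table (version 1.17.8) and statmod 1.5.0 in R 4.3.3, and figures matplotlib 3.10.9. The number of arrays limits the precision. The tests were tested on simulated data. The members and the lists were chosen with earlier results of these data known. From each list up to 3 genes are named, those modulated in the most comparisons, and for each modulated member the 5 genes with the most similar pattern. Between the arrays at 6.0 and 3.0 μg/cm2, same-numbered arrays deviated together (correlation 0.29 to 0.33 at 24 h and 0.18 to 0.66 at 72 h). At 24 h they shared a slide. At 1.5 μg/cm2 same-numbered exposed and control arrays also shared a slide, and their correlation was 0.0495 to 0.44. In the other comparisons with controls it ran from −0.47, at 1.0 μg/cm2, to 0.16, at 3.0 μg/cm2 and 24 h. Alternatives were normexp background correction (offset 50) on the median spot intensity, quantile normalization, other filters on dim probes, the methods' t-test, replicate number or slide as a block, no fold change threshold, replicates 1, 3 and 4 only at 1.5 μg/cm2, other probes and each array left out. Chosen after seeing the data were scan day as a block and the averaging of close arrays.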

Additional observations from a re-analysis of the deposited data

Results flagged for a closer look

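The change against controls differed between 72 h and 24 h by the limma interaction test for SOD2, by −0.65 at 3.0 μg/cm2 and −1.27 at 6.0 μg/cm2, for SOD1, by 0.27 and 0.25, and at 6.0 μg/cm2 for GPX2, by −0.48, and PRDX5, by −0.30 (all on the log2 scale). Scan day and exposure cannot be told apart at 72 h.

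Each of 9 genes was looked at in each group of 4 arrays, 45 cases in all. In 2 of these an array lay far from the other 3. Chance gives about 1 in 20 for independent values, which the close arrays of these groups may not be. SOD2 on replicate 4 at 1.0 μg/cm2 was 1.34 against 1.41 for the nearest array, a gap of 0.835 of the group's range. PRDX5 on replicate 2 of the set B controls was 5.48 against 5.21, a gap of 0.912 of the range. Without that control array the PRDX5 difference at 1.5 μg/cm2 was 0.018, against −0.052 with it.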

How the results depend on the processing

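Counts of modulated genes among the 9 tested did not change with each array left out at 0.1, 1.0 and 1.5 μg/cm2 (0 to 0), at the 2 higher doses at 24 h (2 to 2 each), and at 72 h (1 to 1 and then 2 to 2 with rising dose). Of genes that differed between both doses the count was 1 to 2 at 24 h and 1 to 1 at 72 h, and of genes whose response differed between the times 1 to 2 at 3.0 and 3 to 4 at 6.0 μg/cm2. Without the fold change threshold 6 genes were counted at 6.0 μg/cm2 and 24 h, and 4 and 5 at 3.0 and 6.0 μg/cm2 at 72 h, by construction. Quantile normalization left 1 at 6.0 μg/cm2 and 72 h, since SOD2 fell just under 1.5-fold, and gave 4 in the comparison of times at 3.0 μg/cm2. Normexp background correction left 1 between both doses at 24 h and 2 in the comparison of times at 6.0 μg/cm2. The cause was not tested. No difference of a gene past the test was reversed in any alternative run.

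Replicate number as a block gave the same counts of modulated genes (0, 0, 0, 2, 2, 1 and 2 in the 7 comparisons with controls, and 2 and 1 between both doses), but ended the calls of PRDX1 at 6.0 μg/cm2 and 24 h (adjusted p = 0.0643 by limma) and of GPX1 at 72 h (adjusted p = 0.0864 and 0.0852). With the block between both doses, SOD2 and GPX2 at 24 h and GPX2 at 72 h were called as without it. The methods give no pairing of the arrays, and at 72 h most same-numbered arrays of both doses lay on different slides. Slide as a random block could not be fitted at 72 h. Over all probes, normexp lowered the modulated count from 520 to 187 at 1.5 μg/cm2, from 636 to 226 and from 2066 to 804 at 3.0 and 6.0 μg/cm2 at 24 h, and from 1297 to 501 and 3740 to 1984 at 72 h, and the count of differing probes between both doses at 24 h from 2000 to 20. The median log2 fold change over all probes moved by over 0.1 in 4 cases: with normexp from −0.033 to 0.098 at 6.0 μg/cm2 and 24 h and from 0.054 to −0.16 for the difference between times at 6.0 μg/cm2, and with the series matrix values from 0.031 to −0.094 and from 0.038 to −0.10 at 72 h. The dim probes of SOD3 and GPX3 are limited by signal over background.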

Other observations

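The 24 h and 72 h controls of set C were scanned on the same day and had no exposure, and several of the enzymes stood higher and others lower at 72 h. GPX1 was 4.47 ± 0.025 (SD, n = 3) at 24 h and 5.39 ± 0.11 at 72 h, and its other probe 2.96 and 4.01. GPX2 was 4.94 to 5.02 at 24 h and 5.57 to 5.63 at 72 h, and the means of GPX4 were 2.95 and 3.35 and those of PRDX5 5.10 and 5.44. CAT went from 1.04 to 0.89 and SOD2 from 1.39 to 1.30, both without overlap, and SOD1 from 6.23 to 6.15. The brighter probe of PRDX1 went from 7.10 to 7.02, with overlap, and its other probe from 6.77 to 6.53. No test of this difference was planned.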
